A study of Mus musculus with 4 samples.

Results

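DNA damage sensing and repair genes were examined in melanocyte stem cells, which renew the pigment cells of hair. The set was chosen by gene name as 42 genes in 8 roles, and all 42 were found among the 27933 genes of the count tables. The cells were sorted by fluorescence from mouse skin 12 h after an injection. The stressed group (n = 2) received RTX, which the published study gives as resiniferatoxin, an agonist of the capsaicin receptor, and the control group (n = 2) received saline. No allele, strain, age, sort marker or pooling of animals is given in the sources used here, and the labels do not say whether the libraries of a group came from separate mice. The p-values therefore reflect the library-to-library spread alone, some of which may be technical. The 1 comparison of the design, stressed against control, asks here whether repair transcripts differed 12 h after the injection, in a study of melanocyte stem cell depletion.

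DNA damage is met by separate routes. The kinases ATM and ATR are activated by broken ends and by stalled replication, and they signal through CHEK2 and CHEK1. Broken ends are rejoined by end joining at any time or by homologous recombination after replication, base lesions are cut out singly, bulky and ultraviolet lesions are removed by nucleotide excision, and interstrand crosslinks need the Fanconi anaemia proteins. In pigment cells these routes face ultraviolet light and the reactive intermediates of melanin synthesis.

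Library totals lay between 9273652 and 11854280 counts. The melanocyte markers were abundant in every library, with the 12 listed genes summing to 40846 and 38326 CPM (counts per 1000000 of the TMM-scaled library total) in the stressed libraries and to 23557 and 22258 CPM in the control libraries. The 17 keratinocyte markers summed to 12940 and 11187 CPM in the stressed libraries and to 31514 and 19443 CPM in the control libraries. By DESeq2, 4 of the 12 melanocyte markers rose, with 11 of 12 log2 fold changes above 0, and 8 of the 17 keratinocyte markers fell, with all 17 below 0. Endothelial markers summed to 0.375 and 1.09 CPM in the stressed libraries and to 3.0 and 0.762 CPM in the control libraries, with the defining marker Cdh5 at 0 counts in all 4. The 20 markers of G2 and mitosis summed to 1353 and 1008 CPM in the stressed libraries and to 971 and 536 CPM in the control libraries, whereas the 20 S phase markers summed to 1156 and 1200 CPM and to 1069 and 1152 CPM. The median log2 fold change of the G2 and mitosis markers was 0.66, with 19 of 20 above 0 and 1 called by DESeq2. That of the S phase markers was 0.10, with 15 of 20 above 0 and 0 called. Over all tested genes, 49.1% were above 0 and DESeq2 called 4.4%. Of the 8 fibroblast and dermal markers, Vim, which many cell types express, made up nearly all of the sum, at 2372 and 3268 CPM in the stressed and 1385 and 1566 CPM in the control libraries. The other 7 were each at or below 15.1 CPM in every library, with Lum at 0 counts in all 4. Schwann cell markers summed to 1012 and 800 CPM and to 850 and 1103 CPM, and immune markers to 6.48 and 8.18 CPM and to 7.5 and 39.3 CPM. The part of these differences in the results below was not tested.

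By the median log2 fold change, the repair transcripts lay at nearly the same level in stressed and control cells. The 42 members summed to 2028 and 2246 CPM in the stressed libraries and to 1746 and 1979 CPM in the control libraries. Both stressed sums were thus above both control sums. Ddb1 was the largest part of each, at 517 and 630 CPM in stressed and 396 and 463 CPM in control cells. Without Ddb1 the sums of the groups overlapped. The median log2 fold change of the 42 members, stressed over control, was 0.02, beside -0.01 over all 13348 tested genes. By edgeR's quasi-likelihood test 0 of 42 members were called at an adjusted p below 0.05, where 0% of all tested genes were called. DESeq2 likewise called 0 of 42, where it called 4.4% of all tested genes (1.73% higher and 2.67% lower). With no adjustment, 5 of 42 members were below 0.05 by edgeR, beside 12.8% of all tested genes, a share of the members (11.9%) close to that background. Of these 5, Brca1, Ercc5, Nbn and Lig4 (4 of 42) were higher in stressed cells. Of all tested genes, 5.17% were both below this limit and higher. Prkdc (1 of 42) was lower, where 7.6% of all tested genes were both below this limit and lower. By limma-voom 4 members were under the same limit, where 1700 of all 13348 tested genes were, and 0 genes were called. In bulk RNA, fewer cells of a type and less RNA per cell cannot be told apart.

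Separation of the groups was counted for the repair genes and for all tested genes. In 11 members (26.2%) both stressed libraries lay above both controls, where this held for 21.8% of all tested genes. Bard1 is among the 11, although stressed replicate 1 and control replicate 2 held 12 counts each and parted only by library scaling. In 5 members (11.9%) both stressed libraries lay below both controls, where 22.9% of all tested genes did so. In either direction the members separated in 38.1% of cases, against 44.7% of all tested genes. Log2 fold changes were above 0 in 25 of 42 members, where 49.1% of all tested genes were above 0. All 42 members passed the filter on low counts, although 4 of them (Chek1, Bard1, Ung and Ercc2) had fewer than 100 counts in every library.

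**Figure D1:**
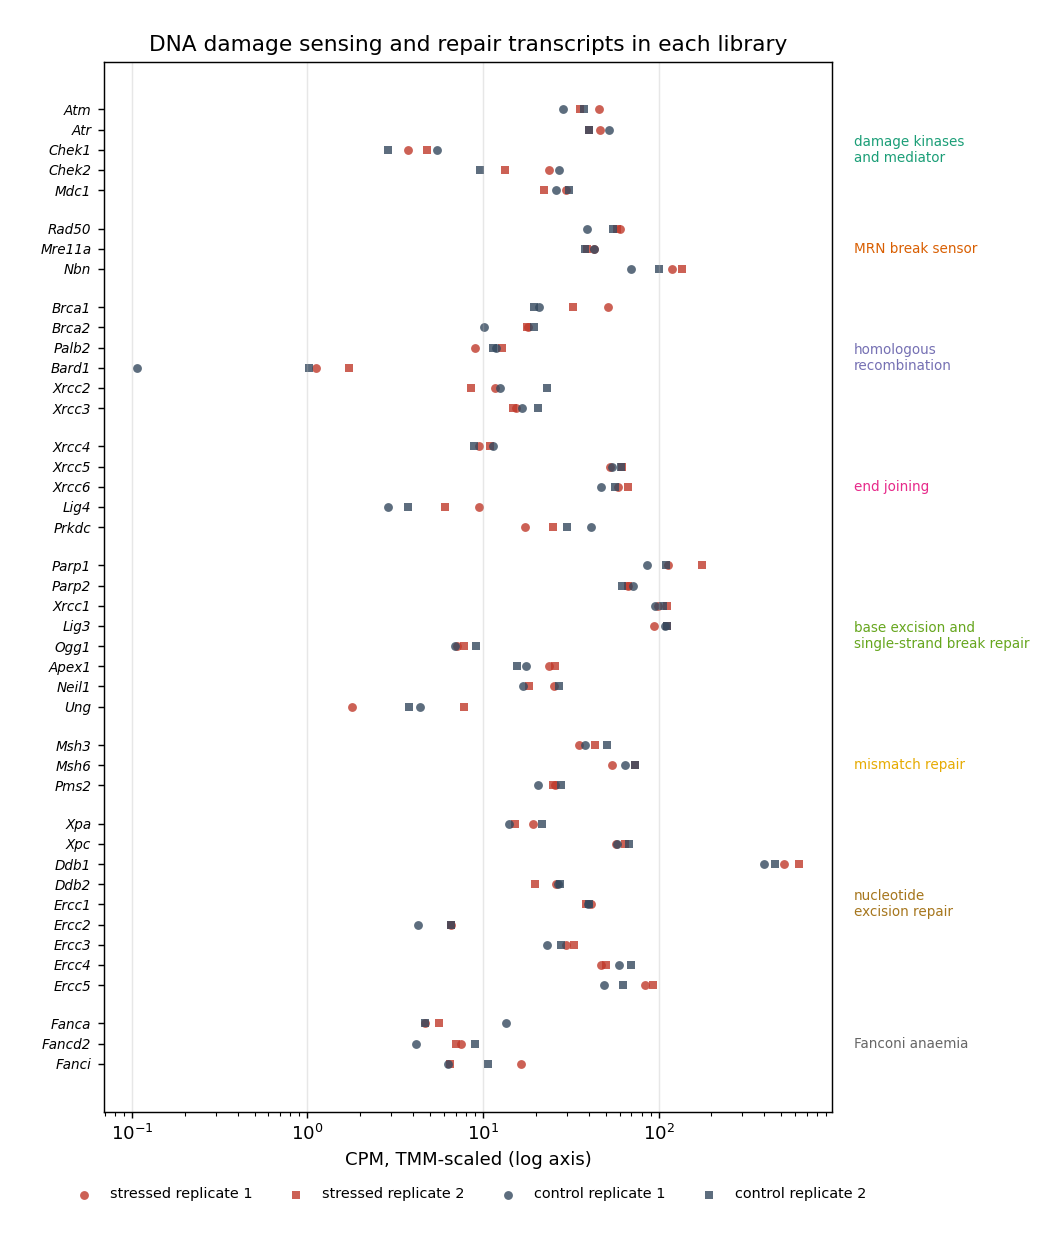
Level of each of the 42 repair transcripts in each library, as CPM on a log axis, with genes grouped by role; red points are stressed and dark points control libraries, circles replicate 1 and squares replicate 2. Ddb1 stands apart at 396 to 630 CPM, Bard1 lies lowest at 0.107 to 1.73 CPM, and most other genes show the red and dark points close together.

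The precision behind these values was enough to bound many of the differences. For 24 of 42 members the 95% confidence interval of the edgeR log2 fold change lay wholly within 1 log2 unit of 0, a 2-fold change either way. The same held for 49.6% of all tested genes, and the median standard error (SE) of the members was 0.27. In 39 of 42 the estimate itself was within 1 log2 unit, where 87.8% of all tested genes were. The other 3 members were Bard1, Lig4 and Brca1. Narrow intervals were those of Parp2, Xrcc5 and Ercc1, which ended at 0.44, 0.48 and 0.50 on the upper side and at -0.43, -0.47 and -0.50 on the lower.

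**Figure D2:**
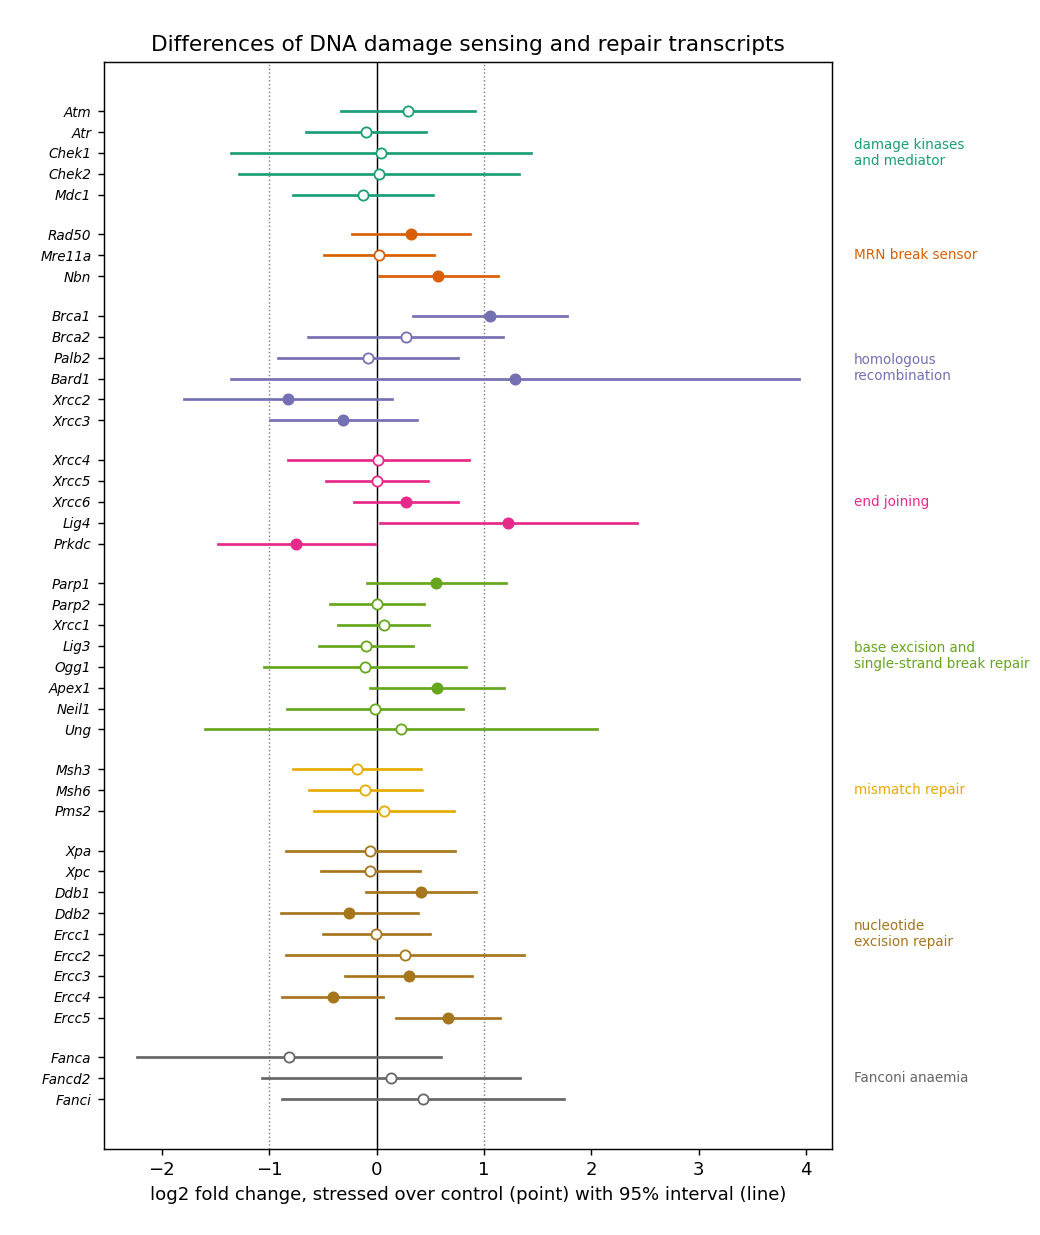
Log2 fold change of each repair transcript, stressed over control (point), with its 95% interval from edgeR (line), by role; filled points mark genes whose groups did not overlap, open points those that overlapped, and dotted lines mark 1 log2 unit. Most lines cross 0, and those of Brca1, Ercc5, Nbn, Lig4 and Prkdc do not.

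Levels between genes were compared per kilobase of exon. By the mean over the 4 libraries, Ddb1 led the set at 138 CPM per kb in stressed cells and 103 CPM per kb in control cells, followed by Nbn at 50.3 and 33.7 CPM per kb, Parp2 at 37.4 and 37.4 CPM per kb and Parp1 at 27.4 and 18.6 CPM per kb. In control cells alone the order differed, with Parp2 above Nbn and Xrcc5, at 22.5 CPM per kb, above Parp1. The lowest 4-library means were those of Bard1, at 0.252 CPM per kb in stressed and 0.0993 in control cells, and of Ung, Fanca, Fancd2 and Chek1, all below 1.1 CPM per kb in either group. In control cells alone Lig4, at 0.636 CPM per kb, was lower than each of these but Bard1. The median member stood at 6.14 CPM per kb over the 4 libraries, beside 7.94 CPM per kb for the median tested gene.

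The apical kinases and their partners showed no separation of the groups in any of 5 genes. Atm (chromosome 9, 53439149-53536740, mm10), the kinase of broken ends, was at 45.5 and 35.8 CPM in stressed cells and 28.5 and 37.8 CPM in control cells. Stressed replicate 1 was the highest of the 4, and stressed replicate 2 lay between the controls. The log2 fold change was 0.29 ± 0.26 (SE). Atr (chromosome 9, 95857597-95951644), the kinase of stalled forks, had 46.5 and 39.9 CPM in stressed and 52.5 and 40.1 CPM in control cells. The groups overlapped, and the log2 fold change was -0.10 with a 95% interval of -0.66 to 0.46. Chek1, the effector kinase of ATR, was scarce, at 3.75 and 4.82 CPM in stressed and 5.46 and 2.88 CPM in control cells. The controls enclosed both stressed values, and the interval was -1.35 to 1.44. Chek2, the effector kinase of ATM, varied within both groups, at 23.8 and 13.3 CPM in stressed and 27.1 and 9.57 CPM in control cells. Control replicate 1 exceeded control replicate 2 by 2.83-fold, and the estimate of 0.02 had an SE of 0.54. Mdc1, which encodes the adaptor that binds marked chromatin at breaks, was at 29.8 and 22.3 CPM in stressed and 26.1 and 30.8 CPM in control cells.

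The MRN complex, which clamps and trims broken ends, was the role whose 3 members all had log2 fold changes above 0. Nbn (chromosome 4, 15957925-15992589), which encodes the subunit that recruits ATM, was at 119 and 136 CPM in stressed and 69.7 and 101 CPM in control cells. Both stressed libraries exceeded both controls, and control replicate 1 was the lowest. Its log2 fold change was 0.58 ± 0.23 (SE), at an edgeR adjusted p of 0.371. Without control replicate 2 it was called, at 0.87 and an adjusted p of 0.0304 by edgeR and of 0.0330 by DESeq2, and without control replicate 1 it was 0.34. Over all alternatives the adjusted p of Nbn ran from 0.0304 to nearly 1. Rad50, the ATPase of the complex, had 60.1 and 57.6 CPM in stressed and 39.3 and 54.7 CPM in control cells, with a log2 fold change at 0.32 ± 0.23 (SE). Mre11a, the nuclease, was at 43.0 and 39.1 CPM in stressed and 42.6 and 38.0 CPM in control cells. Its estimate of 0.03 had an interval of -0.49 to 0.54, and the difference between the subunits was not tested.

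Homologous recombination held the highest and the lowest log2 fold change of the set, those of Bard1 and Xrcc2. Brca1 (chromosome 11, 101488764-101551955), which encodes the ubiquitin ligase that promotes end resection, was at 51.5 and 32.6 CPM in stressed and 20.9 and 19.6 CPM in control cells, from counts of 549 and 358 against 195 and 231. Both stressed libraries stood above both controls, the controls agreed closely, and the stressed libraries differed from each other by 1.58-fold. Its log2 fold change was 1.06 ± 0.30 (SE), with a 95% interval of 0.34 to 1.77. The adjusted p was 0.242 by edgeR and 0.0616 by DESeq2. The edgeR adjusted p was 0.0386 with no low-count filter, a fit that called many genes besides Brca1. Without stressed replicate 1 the log2 fold change was 0.69. Over all alternatives the adjusted p of Brca1 ran from 0.0386 to nearly 1. The summed markers of G2 and mitosis were also highest in stressed replicate 1 (1353 CPM) and lowest in control replicate 2 (536 CPM). Unlike Brca1, their sum in control replicate 1 (971 CPM) was close to that in stressed replicate 2 (1008 CPM). The part of these markers in the Brca1 values was not tested.

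The genes for partners of BRCA1 were scarcer or had less certain differences. Bard1, its obligate partner in the ligase, had 12 and 19 counts in stressed and 1 and 12 counts in control cells, or 1.13 and 1.73 CPM against 0.107 and 1.017 CPM. The 1 count of control replicate 1 is below the floor of 3 counts, and the log2 fold change of 1.29 had an interval of -1.36 to 3.93 and moved between 0.49 without control replicate 1 and 3.59 without control replicate 2. Palb2, the bridge to BRCA2, was at 9.01 and 12.9 CPM in stressed and 11.8 and 11.4 CPM in control cells. Brca2, which encodes a further mediator of recombination, had 18.02 and 17.7 CPM in stressed and 10.1 and 19.5 CPM in control cells. The stressed libraries lay between the controls, and the estimate of 0.27 turned to -0.12 without control replicate 1. Xrcc2 was at 11.7 and 8.55 CPM in stressed and 12.5 and 23.3 CPM in control cells, with a log2 fold change at -0.82 ± 0.40 (SE), and with a control library left out it was -0.31 (replicate 2) or -1.19 (replicate 1). Xrcc3 was at 15.4 and 14.7 CPM in stressed and 16.6 and 20.7 CPM in control cells, with a log2 fold change at -0.31 ± 0.28 (SE). In Xrcc2 and Xrcc3, both genes of recombination, the groups did not overlap, and neither passed edgeR or DESeq2.

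The start regions of Brca1, Bard1 and Brca2 are shown because their proteins act in 1 pathway and the motifs in their windows differ. Each run covers 250 bases before to 50 bases after the RefSeq start (GRCm38.p6), read along the gene's strand from 5′ to 3′: chr11:101551906-101552205 on the minus strand for Brca1, chr1:71102923-71103222 on the minus strand for Bard1 and chr5:150522371-150522670 on the plus strand for Brca2. Capitals mark matches on either strand to the E2F motifs TTTCCCGC and TTTGGCGC, the NRF1 motif GCGCATGC and the cAMP response element TGACGTCA.
Brca1: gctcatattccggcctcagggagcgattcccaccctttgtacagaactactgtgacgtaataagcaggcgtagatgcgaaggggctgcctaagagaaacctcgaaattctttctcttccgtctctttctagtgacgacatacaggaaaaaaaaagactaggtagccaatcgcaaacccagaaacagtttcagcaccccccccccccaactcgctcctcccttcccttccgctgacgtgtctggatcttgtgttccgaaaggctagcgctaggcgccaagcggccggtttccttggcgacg
Bard1: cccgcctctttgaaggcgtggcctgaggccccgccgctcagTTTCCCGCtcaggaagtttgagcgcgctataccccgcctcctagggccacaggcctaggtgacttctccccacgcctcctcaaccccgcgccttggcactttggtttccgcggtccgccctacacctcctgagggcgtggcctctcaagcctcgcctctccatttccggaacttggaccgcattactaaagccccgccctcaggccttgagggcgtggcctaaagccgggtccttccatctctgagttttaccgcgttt
Brca2: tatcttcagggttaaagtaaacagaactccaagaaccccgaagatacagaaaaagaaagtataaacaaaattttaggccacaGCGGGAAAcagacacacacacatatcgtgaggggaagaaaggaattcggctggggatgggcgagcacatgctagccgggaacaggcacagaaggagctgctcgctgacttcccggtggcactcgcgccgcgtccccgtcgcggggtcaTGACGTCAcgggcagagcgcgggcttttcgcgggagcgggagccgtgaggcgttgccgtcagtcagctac
The Brca1 window held none of these motifs, the Bard1 window held an E2F match, and the Brca2 window held an E2F match on the other strand and the cAMP response element. Of the 34 members with a RefSeq window, 6 held TTTCCCGC (17.6%), beside 2.28% of the 10038 tested genes with a window. These 6 were Bard1, Brca2, Chek2, Mdc1, Msh6 and Xrcc6, and their log2 fold changes ran from -0.13 to 1.29 with a median of 0.15. TTTGGCGC was found in 1 member, Msh3 (1.18% of tested genes), and TGACGTCA in Brca2 alone (3.67% of tested genes). GCGCATGC was found in 6 members (5.96% of tested genes). A match to these letters describes the sequence and is not evidence of binding.

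End joining contained estimates on both sides of 0, none of which passed edgeR or DESeq2. Prkdc (chromosome 16, 15637866-15842235), which encodes the catalytic subunit of the DNA-dependent protein kinase, was at 17.4 and 25.01 CPM in stressed and 41.1 and 30.2 CPM in control cells. Both stressed libraries lay below both controls. The difference was -0.75 ± 0.30 on the log2 scale (SE), with an unadjusted edgeR p of 0.0459 and an adjusted p of 0.380, and it lay between -1.02 and -0.51 with 1 library left out. Lig4 (chromosome 8, 9969049-9977686), the ligase that seals the joined ends, was at 9.48 and 6.09 CPM in stressed and 2.89 and 3.73 CPM in control cells. Both stressed libraries exceeded both controls, on counts of 101 and 67 against 27 and 44. Its log2 fold change was 1.23 ± 0.50 (SE), at an edgeR adjusted p of 0.380. The Ku subunits that bind the end with this kinase had closer values. Xrcc5, which encodes Ku80, was at 52.8 and 62.3 CPM in stressed and 54.1 and 60.8 CPM in control cells, with an estimate of 0.00 and an interval of -0.47 to 0.48. Xrcc6, which encodes Ku70, was at 58.5 and 66.8 CPM in stressed and 47.0 and 56.4 CPM in control cells, with a log2 fold change at 0.28 ± 0.20 (SE). Xrcc4, the scaffold of the ligase, had 9.48 and 11 CPM in stressed and 11.4 and 8.90 CPM in control cells, and its groups overlapped.

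Among the 8 genes of base excision and single-strand break repair, several abundant ones had nearly equal group means. Parp2, a sensor that builds poly(ADP-ribose) at breaks, was at 66.9 and 66.8 CPM in stressed and 71.8 and 61.8 CPM in control cells. The controls enclosed the stressed values, and the estimate of 0.00 had an SE of 0.18. Xrcc1, the scaffold that the chains recruit, was at 98.8 and 111 CPM in stressed and 95.3 and 105 CPM in control cells, and its ligase Lig3 was at 94.2 and 112 CPM and at 109 and 112 CPM. Parp1 (chromosome 1, 180568924-180601254), the main sensor of the family, differed more, at 113 and 177 CPM in stressed and 86.0 and 111 CPM in control cells. Stressed replicate 2 was well above the rest, while stressed replicate 1 exceeded control replicate 2 only slightly. The difference was 0.56 ± 0.27 on the log2 scale (SE). It was 0.85 when stressed replicate 1 was left out and 0.21 when stressed replicate 2 was. Apex1, the endonuclease that cuts abasic sites, was at 23.7 and 25.6 CPM in stressed and 17.7 and 15.7 CPM in control cells, a log2 fold change of 0.56 ± 0.26 (SE). It shares 61.7% of its exon bases with Tmem55b on the opposite strand, where reads of the genes cannot be told apart. The same holds for 25.1% of the exon bases of Lig3 (with Rffl), 24.6% and 17.8% of Ercc2 (with Gm26852 and Klc3), 23.8% of Ddb2 (with Acp2), 16.0% of Fanci (with Polg) and 10.6% of Ogg1 (with Camk1). The glycosylases, which remove damaged bases, showed overlapping groups. Ogg1 had 7.13 and 7.82 CPM in stressed and 6.96 and 9.15 CPM in control cells, and Neil1 had 25.3 and 18.2 CPM and 16.8 and 27.1 CPM. Ung was the least even, at 1.78 and 7.82 CPM in stressed and 4.39 and 3.81 CPM in control cells, with the stressed pair 4.38-fold apart.

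**Figure D3:**
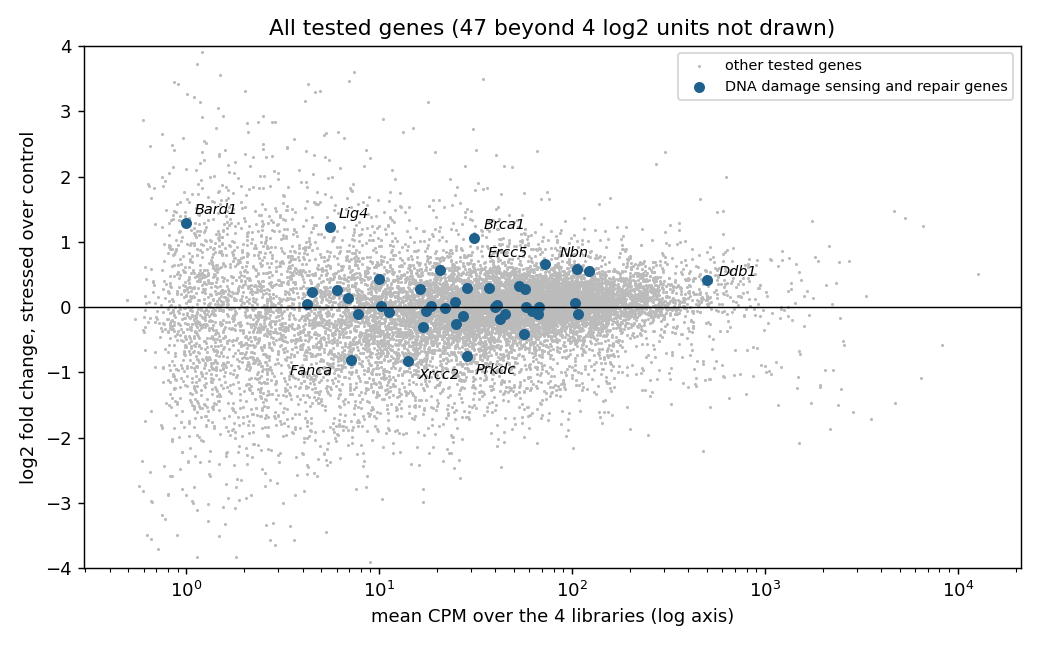
Log2 fold change, stressed over control, against mean CPM over the 4 libraries on a log axis for the tested genes (grey) and the repair genes (blue). The 42 repair genes lie within the cloud of genes of like abundance, with Bard1, Lig4 and Brca1 highest at 1.29, 1.23 and 1.06 and Xrcc2 and Fanca lowest at -0.82 each.

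All 3 mismatch repair genes had overlapping groups. Msh6, which encodes a subunit that recognises mispaired bases, was at 54.4 and 73.7 CPM in stressed and 64.3 and 73.3 CPM in control cells. The stressed libraries held both the lowest and the highest value, and the log2 fold change was -0.10 with an interval of -0.63 to 0.42. Msh3, which recognises larger loops, was at 35.4 and 43.4 CPM in stressed and 38.4 and 50.9 CPM in control cells. Pms2, an endonuclease subunit of the pathway, was at 25.7 and 24.9 CPM in stressed and 20.5 and 27.7 CPM in control cells. Every 95% interval of the 3 lay within 1 log2 unit of 0.

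Nucleotide excision repair had the highest summed level of the 8 roles, at 828 and 951 CPM in stressed and 671 and 786 CPM in control cells, most of it from Ddb1. Damage recognition came first in the pathway. Ddb1 (chromosome 19, 10605625-10629813), which encodes the larger subunit of the ultraviolet damage binding complex and also serves as an adaptor of many ubiquitin ligases, was at 517 and 630 CPM in stressed and 396 and 463 CPM in control cells. The groups did not overlap, and the log2 fold change was 0.42 ± 0.21 (SE), at an edgeR adjusted p of 0.477. Ddb2, the subunit that contacts the lesion, was at 26 and 19.7 CPM in stressed and 26.9 and 27.6 CPM in control cells, a log2 fold change of -0.25 ± 0.26 (SE). Per kb, Ddb1 exceeded Ddb2 by 16.5-fold in stressed and by 10.4-fold in control cells. The Ddb2 length includes the 23.8% of its exon bases shared with Acp2, where reads cannot be told apart. Xpc, the sensor of helix distortion, was at 57.1 and 64.1 CPM in stressed and 58.3 and 67.8 CPM in control cells, and its estimate of -0.06 had an interval of -0.52 to 0.40.

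The opening and cutting steps included 2 nuclease genes whose groups did not overlap, in opposite directions. Ercc5 (chromosome 1, 44147744-44181260), which encodes XPG, the nuclease of the 3′ side, was at 83.6 and 93.4 CPM in stressed and 49.2 and 62.5 CPM in control cells. Both stressed libraries exceeded both controls. The difference was 0.66 ± 0.20 on the log2 scale (SE), with an unadjusted edgeR p of 0.0149 and an adjusted p of 0.262. It lay between 0.51 and 0.85 by edgeR with 1 library left out. Ercc4 (chromosome 16, 13109684-13150617), which encodes XPF, the nuclease of the 5′ side, was at 47.0 and 50.01 CPM in stressed and 59.2 and 69.6 CPM in control cells. Both stressed libraries lay below both controls, with a log2 fold change at -0.41 ± 0.19 (SE). Ercc1, the partner without which XPF does not cut, was at 41.0 and 38.7 CPM in stressed and 39.9 and 40.0 CPM in control cells, an estimate near 0 with an interval of -0.50 to 0.50. The helicase subunits of TFIIH were Ercc2, at 6.57 and 6.55 CPM in stressed and 4.29 and 6.61 CPM in control cells, and Ercc3, at 29.9 and 32.8 CPM in stressed and 23.2 and 27.7 CPM in control cells. Xpa, the scaffold at the opened site, was at 19.2 and 15.3 CPM in stressed and 14.1 and 21.6 CPM in control cells.

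The 3 Fanconi anaemia genes were scarce and uneven within groups, and their groups overlapped. Fanca, a subunit of the core ligase complex, was at 4.69 and 5.64 CPM in stressed and 13.6 and 4.66 CPM in control cells. Only control replicate 1 was high, and the log2 fold change of -0.82 became 0.15 without it. Fancd2, the clamp that the core complex ubiquitinates, was at 7.51 and 7.002 CPM in stressed and 4.18 and 8.98 CPM in control cells. The stressed values lay between the controls. Fanci, the other subunit of the clamp, was at 16.5 and 6.46 CPM in stressed and 6.32 and 10.7 CPM in control cells, with stressed replicate 1 above the other libraries. No interval of the 3 lay within 1 log2 unit of 0, so differences of that size lay inside their intervals. The control pair was 2.92-fold apart for Fanca and 2.15-fold apart for Fancd2, and the stressed pair was 2.56-fold apart for Fanci.

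Differences inside the groups were of the same order as those between them for many members. Among the repair genes 2 of 42 were more than 2-fold apart in the stressed pair (Fanci and Ung), where 8.32% of all tested genes were. In the control pair 4 of 42 were (Chek2, Bard1, Fanca and Fancd2), where 13.6% of all tested genes were. When each library was left out in turn, the sign of the edgeR log2 fold change held in 17 members and turned at least once in the other 25. Where the groups do not overlap, leaving out 1 library cannot turn the sign, apart from small shifts in scaling. The 17 were the members whose groups did not overlap and Atm, so this count largely repeats the separation.

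**Figure D4:**
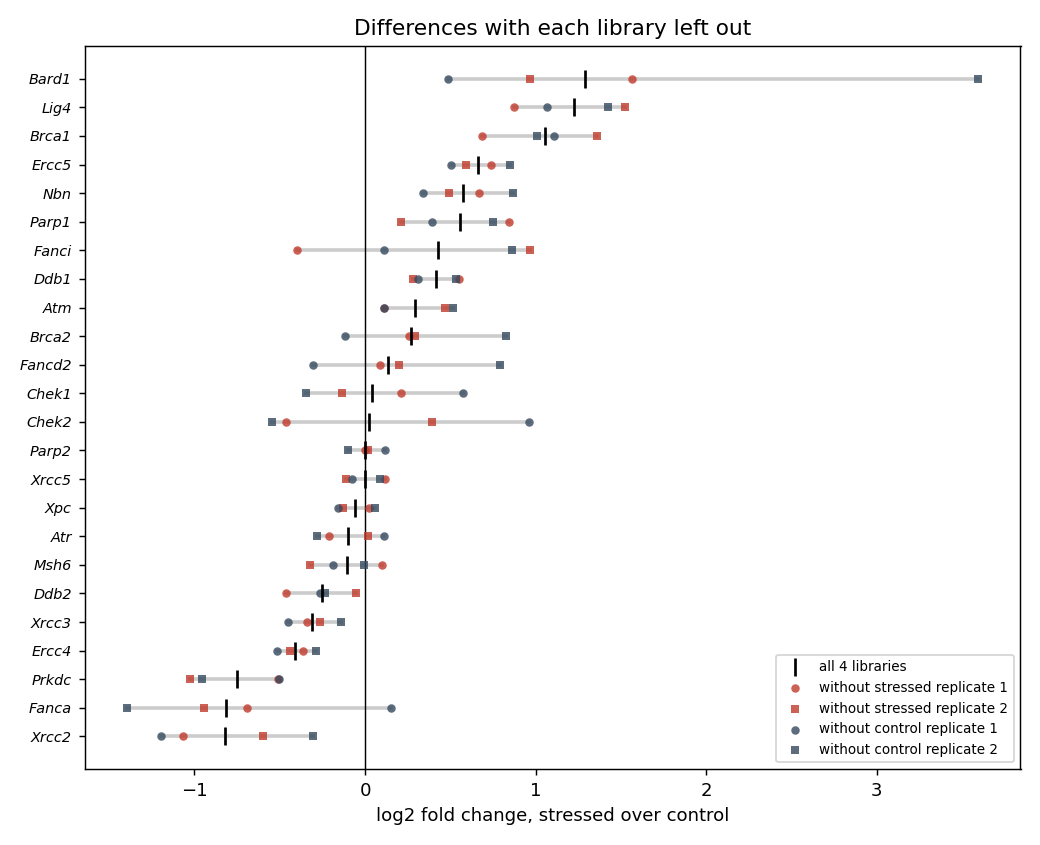
Log2 fold change, stressed over control, of 24 repair genes with all 4 libraries (black bar) and with each library left out (coloured points; red without a stressed, dark without a control library). Brca1, Ercc5, Nbn and Lig4 stay above 0 and Prkdc, Ercc4, Xrcc3 and Xrcc2 below 0 in every fit, while Chek2, Fancd2, Fanci and Fanca cross 0.

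The wider repair machinery gave a similar picture. A further 8 lists of repair genes held 102 tested genes, whose log2 fold changes had -0.02 as the median and ran from -0.80 to 2.11. The highest of other homologous recombination, 2.11, and of other mismatch repair, 1.58, came from genes with means below 10 CPM. None of the 102 was called by edgeR, which placed 8 (7.84%) at an unadjusted p below 0.05, a share below the 12.8% of all tested genes. DESeq2 called 1 of the 102, where it called 4.4% of all tested genes. That gene was Gtf2h1 (chromosome 7, 46796103-46823800), which encodes the p62 subunit of TFIIH, at 246 and 250 CPM in stressed and 128 and 104 CPM in control cells. Both stressed libraries exceeded both controls, and the gene rose by DESeq2 with a log2 fold change of 1.10, an SE of 0.22 and an adjusted p of 9.21e-05. The edgeR adjusted p was 0.128, by edgeR with 1 control library left out it was 0.000685 or 0.0167, and the DESeq2 call ended without stressed replicate 1 (adjusted p = 0.156) and without stressed replicate 2 (adjusted p = 0.341). The next highest log2 fold changes among those of at least 10 CPM were Neil3, a glycosylase gene, at 0.92 with an SE of 0.38, and Parp3, a poly(ADP-ribose) polymerase gene, at 0.78 with an SE of 0.73. The lowest were Fan1, a crosslink nuclease gene, at -0.70, Hus1, a gene of the checkpoint clamp, at -0.62, and Fancc, a Fanconi core gene, at -0.61. Of these 5, Parp3 was at 2.38 without control replicate 2 and at 0.06 without control replicate 1 by edgeR. The adjusted p of each of the 5 stayed above 0.05 in every alternative that kept all 4 libraries.

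Targets of p53, the transcription factor that acts downstream of ATM and CHEK2, are given beside the repair genes. The 20 listed targets summed to 2422 and 2008 CPM in stressed and 2886 and 2633 CPM in control cells. Btg2 was the largest part of each sum, at 897 and 524 CPM in stressed and 1500 and 1378 CPM in control cells. Its gap between the groups exceeded that of the sums. The median of the log2 fold changes of the 20 was 0.26, and 14 of 20 were above 0, beside 49.1% of all tested genes. None was called by edgeR, with 6 at an unadjusted p below 0.05, where 12.8% of all tested genes were. DESeq2 called 4 of 20, where it called 4.4% of all tested genes. These 4 are named here after their values were seen. Bax, Ccng1 and Gdf15 rose, by 0.92, 0.76 and 3.33 on the log2 scale, and Btg2 fell by 1.01. Besides Btg2, the log2 fold changes of Cdkn1a, Sesn1, Pmaip1, Fas and Rrm2b were also below 0, and none of these was called. Among the repair genes, Ddb2 and Xpc are p53 targets in human cells, and neither passed edgeR or DESeq2.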

How the data were processed

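The authors deposited whole-number read counts per gene, made with featureCounts 1.6.1 per the file headers, which record a minimum mapping quality of 30, exons summed by gene name on mm10, and neither a strand nor a paired-end option. STAR 2.5.3, Trim Galore 0.4.1, mm10 and DESeq2 1.22.2 are named, with no order, in the submitters' processing notes. Exons of 18 members share bases with another gene, where unstranded reads cannot be told apart. The deposited exon length (another column of the same tables) gave levels per kb.

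Counts were analysed in R 4.3.3. edgeR 4.0.16 (filterByExpr with a minimum count of 10, TMM, quasi-likelihood F-test, two-sided, group only) was fitted to all 13348 genes that passed, and a call was a Benjamini-Hochberg adjusted p below 0.05. The SE is the absolute log2 fold change over the square root of F, and CPM uses TMM-scaled totals. DESeq2 1.42.0 and limma 3.58.1 (voom) were alternatives, and DESeq2 with each library left out was added after seeing the data. In simulated data of 13348 genes the edgeR test was run for recovery of known changes. The recovery rates are not given here, so no power is claimed for the edgeR counts of 0 called. A count of 0 allows up to 3 counts (0.253 to 0.323 CPM), for counting error only. The 2 libraries of a group differed by more than sampling noise (chi-square per degree of freedom 18.0 in the stressed and 54.0 in the control pair). The members and lists were chosen with earlier results of these data known. The genes given in full were those called, the 5 highest and 5 lowest log2 fold changes, the most abundant per kb of each role, and 11 fixed names. Promoter windows are from RefSeq, GRCm38.p6, of which 34 of 42 members had a window.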

Additional observations from a re-analysis of the deposited data

How the results depend on the processing

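Over all genes, edgeR called 0, also with DESeq2 size factors, the filter of 5 CPM in 2 libraries, the 20 most abundant genes removed, and limma-voom (1705 genes at an unadjusted p below 0.05 by edgeR and 1700 by limma-voom). DESeq2 called 587 and edgeR with no low-count filter 760, and with 1 library left out the count ran from 0 (edgeR, without either stressed library) to 995 (edgeR, without control replicate 2). The cause was not tested. These fits take the spread of the single library that stays in a group from the other pair. Of the repair genes 1, Brca1, was called with no low-count filter, beside the 760 over all genes of that fit. It holds more genes than the main fit. The median log2 fold change of the repair genes ran from 0.010 to 0.118 over the 15 alternatives, and between 20 and 26 members lay above 0.

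Signs turned for 11 of the 24 genes given in full. With a library left out, by edgeR or DESeq2, the log2 fold change ran from -0.281 to 0.113 for Atr, -0.349 to 0.576 for Chek1, -0.547 to 0.960 for Chek2, -0.122 to 0.830 for Brca2, -0.118 to 0.121 for Xrcc5, -0.102 to 0.118 for Parp2, -0.331 to 0.104 for Msh6, -0.159 to 0.058 for Xpc, -1.395 to 0.153 for Fanca, -0.305 to 0.798 for Fancd2 and -0.398 to 0.967 for Fanci. With the 5 CPM filter Xrcc5 was at -0.0057 and Parp2 at -0.0055, and limma-voom gave -0.0044 for Xrcc5.

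With the replicate number as a block, edgeR again called 0 of 13348 genes and 0 of 42 members, and Xrcc5 was at -0.00082. The deviations of same-numbered libraries correlated at 0.173, but the labels do not say that a number marks a shared animal or day, and the file headers number the stressed alignments 2 and 3. Intervals reached past 1 log2 unit in scarce members such as Bard1 (1 to 19 counts) and in abundant ones such as Parp1 (803 to 1945 counts), and the part of depth in their width was not tested.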
